A study of Mus musculus with 10 samples.

Results

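Angiopoietin-Tie, apelin and Esm1 transcripts were read out in RNA-seq of primary adipocytes that differed in Fam20c, a secretory kinase. The set held 8 genes of the 56748 in the count table, found by symbol: the ligands Angpt1, Angpt2, Angpt4 and Apln, the receptors Tek, Tie1 and Aplnr, and the secreted proteoglycan gene Esm1. They were chosen by name with the KO against control values of these same libraries in view. Those values are therefore given as a description, without P values. Of the 8 genes, 7 passed the filter on low counts, and Aplnr did not.

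The cultures came from the inguinal stromal vascular fraction (SVF) of mice, and all were labelled as primary adipocytes that had undergone adipogenic differentiation. The 5 control cultures were Fam20c-flox, and the 5 KO cultures were Fam20c-flox/Adipoq-Cre. The study's methods describe such cultures as coming from male mice 6 to 8 weeks of age and as differentiated for 6 to 8 days, with lines backcrossed to C57BL/6J for at least 5 generations. Both groups carried the floxed gene. Only the KO group carried Cre, which the adiponectin promoter drives in adipocytes, so deletion of Fam20c and presence of Cre cannot be told apart. The SVF also holds endothelial, mural, immune and progenitor cells, and no source used here describes a purification of adipocytes after differentiation.

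Angiopoietins are secreted ligands of the receptor tyrosine kinase TEK, also called TIE2, which is known mainly from endothelial cells. ANGPT1 activates TEK and is made largely by cells around the vessel. ANGPT2 is made by activated endothelial cells and can oppose or mimic ANGPT1 depending on context, and TIE1 is a partner of TEK in the same membrane with no well-established ligand of its own. Apelin, the product of Apln, is a peptide that signals through the G protein-coupled receptor APLNR. In sprouting vessels, ANGPT2, apelin and ESM1 (endocan) are known as products of the leading tip cells, while APLNR is known from the cells behind them. Apln and Angpt2 are also textbook transcripts of the response to low oxygen.

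Promoter sequences are shown for 3 genes because they come from endothelial-type genes that behaved differently below: Esm1 and Tie1 were lower in KO libraries, whereas Tek was not called. They are from RefSeq on GRCm38.p6, read 5′ to 3′ on the strand of the gene, and capitals mark matches to the short motifs named after them. RefSeq promoters were matched for 5 of the 8 genes; Angpt1, Angpt2 and Aplnr were not matched. The Esm1 promoter is chr13:113209409-113209658 on the plus strand, the 250 bases before the start site. The Tek promoter is chr4:94739039-94739288 on the plus strand, also 250 bases. For Tie1, the first 38 of the 250 bases are shown, chr4:118490062-118490099 on the minus strand, because an annotated transcript begins after them.
Esm1: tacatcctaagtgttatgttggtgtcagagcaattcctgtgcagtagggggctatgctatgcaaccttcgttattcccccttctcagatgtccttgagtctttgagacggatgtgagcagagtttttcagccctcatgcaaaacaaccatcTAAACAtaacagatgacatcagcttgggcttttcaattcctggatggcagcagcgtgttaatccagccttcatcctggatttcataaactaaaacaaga
Tek: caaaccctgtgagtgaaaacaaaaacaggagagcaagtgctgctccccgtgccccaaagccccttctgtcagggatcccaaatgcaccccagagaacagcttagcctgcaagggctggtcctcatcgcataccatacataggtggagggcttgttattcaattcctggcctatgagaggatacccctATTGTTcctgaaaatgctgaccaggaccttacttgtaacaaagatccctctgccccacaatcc
Tie1: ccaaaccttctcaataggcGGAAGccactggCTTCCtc
Both strands were searched for 6 short motifs. The core of ETS factor sites was spelled GGAAG. For the SOX family, the letters were AACAAT. Forkhead (FOX) sites were represented by the letters TGTTTA. The Notch effector RBPJ was represented by TGGGAA. For the hypoxia response element, the core searched was ACGTG. Sites of the GATA family were written as AGATAA. The Esm1 promoter held 1 FOX match, with its first base 99 bases before the start, and the Tek promoter held 1 SOX match at 63 bases before it. The whole 250-base Tie1 promoter held 6 ETS matches, of which 2 lie in the stretch shown, and 1 RBPJ match that overlaps an ETS match on the same strand. Of the promoters not shown, Angpt4 held 4 ETS matches and Apln held 3. Among 32851 promoters of this length, 64.1% held the ETS letters, 12.0% FOX, 9.42% SOX, 21.6% RBPJ, 16.6% the hypoxia letters and 9.99% GATA. The last 2 motifs had no match in the 5 member promoters. These matches describe letters in a window and show no binding.

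Library totals ranged from 18949106 to 26237825 counts in controls and from 19883101 to 23291792 in KO. Levels are given as CPM, in which each count is divided by the library's total after correction for library composition. The targeted gene, Fam20c on chromosome 5 (138754514 to 138810077), averaged 10.2 ± 1.29 CPM in controls against 7.30 ± 0.449 CPM in KO (SD, n = 5 each; log2 fold change -0.49, adjusted P value 0.0137 by edgeR's quasi-likelihood test, adjusted after Benjamini and Hochberg over 14270 genes). Control 4 and KO 1 stood apart from the others of their groups on the first principal component, which held 23.5% of the variance. On it the other controls lay between -14.8 and -11.5 and the other KO libraries between -4.12 and 8.59. The second component, with 20.5%, ran from 3.37 to 19.3 in controls and from -18.7 to 3.32 in KO libraries. There KO 1 lay next to control 2. The 12 hypoxia target genes were highest in control 4 and KO 1, at a mean of 7.96 and 7.99 log2 CPM. They had 6.92 to 7.14 in the other controls and 7.18 to 7.43 in the other KO libraries. Whether oxygen differed between cultures was not tested. Several values that rest on control 4 and KO 1 are given below with and without them. Correlations between single genes are not given without both of these libraries.

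Esm1, Angpt2 and Tie1 were lower in all 5 KO libraries than in any control, to 27.9%, 45.0% and 39.3% of the control level. Angpt1, Angpt4, Tek and Apln overlapped between the groups and were not called. In this contrast, which the choice of genes used, 3 of the 7 fitted genes were called lower (1.86% of all 14270 genes tested were) and 0 were called higher (0.308% of all), at an adjusted P value under 0.05. KO libraries lay wholly below control for 3 of the 7 fitted genes, an arrangement seen in 2.66% of the genes tested, and wholly above for none, which occurred in 1.31%. Aplnr, which was not tested, also lay wholly below control, on few counts. The median log2 fold change of the 7 genes was -0.28, beside -0.001 over all genes.

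**Figure D1:**
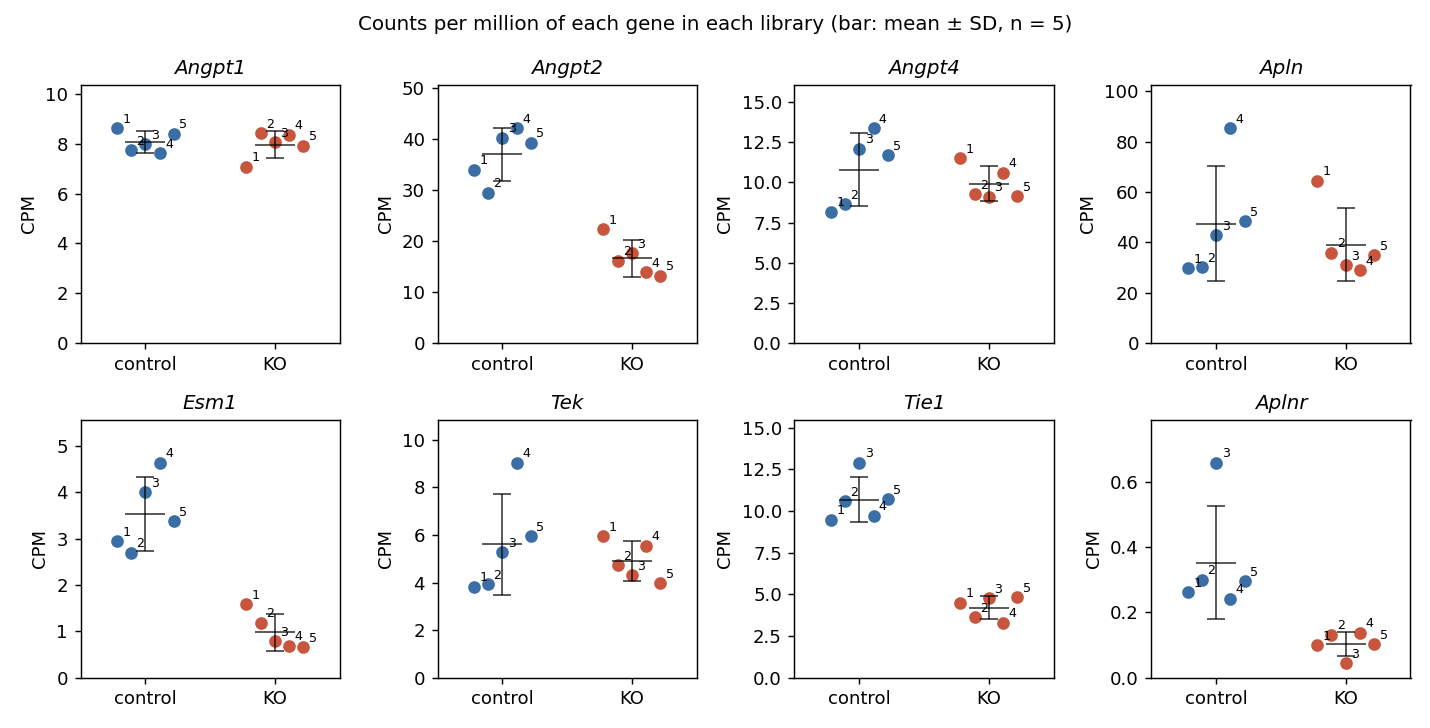
CPM of each gene (y axis, from 0) in the 5 control and 5 KO libraries (points, numbered by replicate), with the mean and SD. Esm1, Angpt2, Tie1 and Aplnr show no overlap between groups, while Apln and Tek are highest in control 4 and, within the KO group, in KO 1.

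Among the ligands, Angpt2 (chromosome 8, 18690263 to 18741562, minus strand, GRCm38) had 33.9, 29.4, 40.2, 42.1 and 39.2 CPM in control libraries 1 to 5. It had 22.3, 16.1, 17.6, 13.8 and 13.2 CPM in KO libraries 1 to 5. The highest KO library, KO 1, lay below the lowest control. The means were 37.0 ± 5.19 CPM in control and 16.6 ± 3.63 CPM in KO (SD, n = 5 each), and the log2 fold change was -1.15 (SE 0.137). Angpt2 lies within Mcph1 on the opposite strand, a gene of the DNA damage response, and they share no exon bases. Mcph1 had 13.8 ± 0.491 and 13.3 ± 0.301 CPM, a log2 fold change of -0.06 (adjusted P value 0.75).

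Angpt1 (chromosome 15, 42424723 to 42676977, minus strand) was the steadiest of the genes. It had 8.65, 7.76, 7.99, 7.64 and 8.41 CPM in controls and 7.09, 8.43, 8.07, 8.38 and 7.94 CPM in KO libraries. The KO libraries lay within the control range except for KO 1, which was lowest of all. The means were 8.09 ± 0.43 and 7.98 ± 0.539 CPM, and the log2 fold change was -0.02 (SE 0.0743). The annotation places the antisense gene Gm17473 across 737 of its exon bases, and that gene had 0 or 1 count in every library.

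Angpt4 (chromosome 2, 151911210 to 151945337, plus strand), another angiopoietin and TEK ligand, had 8.18, 8.66, 12.1, 13.4 and 11.7 CPM in controls. In KO libraries it had 11.5, 9.26, 9.12, 10.6 and 9.16 CPM, all within the control range. The log2 fold change was -0.12 (SE 0.135). Controls 1 and 2 were the lowest of the 10 libraries and control 4 was the highest.

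Apln (chromosome X, 48025146 to 48034853, minus strand) had 29.8, 30.1, 42.9, 85.5 and 48.5 CPM in controls. It had 64.5, 35.8, 30.9, 29.0 and 34.8 CPM in KO libraries. Control 4 and KO 1, the libraries that stood apart, were the highest of the 10, and the groups overlapped. The log2 fold change was -0.28 (SE 0.291), the largest SE of the 7 genes. Without these libraries, controls spanned 29.8 to 48.5 CPM and KO libraries 29.0 to 35.8 CPM, and the log2 fold change was -0.21 (SE 0.145), again not called. With control 4 alone left out it was 0.04, so its sign rested on that library.

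Among the receptors, Tie1 (chromosome 4, 118471191 to 118490061, minus strand) had 9.49, 10.6, 12.9, 9.72 and 10.7 CPM in controls and 4.51, 3.64, 4.76, 3.30 and 4.84 CPM in KO libraries. The groups were far apart, and neither control 4 nor KO 1 was extreme. The means were 10.7 ± 1.34 and 4.21 ± 0.695 CPM, with a log2 fold change of -1.35 (SE 0.123).

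Tek (chromosome 4, 94739289 to 94874976, plus strand) had 3.83, 3.94, 5.27, 9.04 and 5.96 CPM in controls and 5.95, 4.74, 4.32, 5.54 and 3.97 CPM in KO libraries. Every KO library lay within the control range, and control 4 was the highest. The means were 5.61 ± 2.12 and 4.91 ± 0.829 CPM, with a log2 fold change of -0.19 (SE 0.217). Without control 4 and KO 1 the log2 fold change was -0.03 (SE 0.16), and with control 4 alone left out it was 0.05.

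Aplnr (chromosome 2, 85136225 to 85139923, plus strand) was too low for the fit. It had 5, 8, 14, 5 and 7 counts in controls and 2, 3, 1, 3 and 2 counts in KO libraries. All KO libraries lay below all controls, on 39 control counts and 11 KO counts in total. The ratio of KO to control, scaled for library size, was 0.293, with a 95% exact interval of 0.135 to 0.583 that covers counting error only. When all genes were fitted without the filter, Aplnr was not called, with a log2 fold change of -1.72 (SE 0.475).

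Esm1 (chromosome 13, 113209659 to 113218098, plus strand) had 2.94, 2.70, 4.00, 4.64 and 3.38 CPM in controls. It had 1.59, 1.19, 0.786, 0.687 and 0.662 CPM in KO libraries, from 13 to 96 counts over the 10 libraries. KO 1 was the highest of the KO libraries and still lay below every control. The means were 3.53 ± 0.793 and 0.981 ± 0.399 CPM, with a log2 fold change of -1.84 (SE 0.241). It overlaps Gzmk, a granzyme gene on the opposite strand, which had 0 counts in all libraries. When single libraries were left out, log2 fold changes lay between -2.06 and -1.72 for Esm1, -1.28 and -1.08 for Angpt2, and -1.40 and -1.27 for Tie1.

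Levels were compared between genes per kilobase of exon. The order was taken from these same controls. The test below pools both groups, so the genotype contrast behind the choice of genes enters it. By control mean the order was Apln (15.0 CPM per kilobase), Angpt2 (10.0), Angpt4 (4.63), Tie1 (2.18), Esm1 (1.68), Angpt1 (1.55), Tek (1.19) and Aplnr (0.0951). In KO libraries the same quantities were 12.4, 4.50, 4.25, 0.856, 0.468, 1.53, 1.04 and 0.0278 CPM per kilobase. Of the 7 neighbouring pairs, 6 differed over the 10 libraries of both groups in a 2-sided exact sign-flip permutation test, with adjusted P values of 0.00456 to 0.0228. Esm1 and Angpt1 did not (exact permutation test, adjusted P = 0.0508): Esm1 was on average 0.11 log2 units above Angpt1 in controls and 1.67 below it in KO libraries. Angpt2 exceeded Angpt4 by 1.12 log2 units in controls and by 0.06 in KO libraries, and was the higher of the pair in 8 of 10 libraries. With control 4 left out, the order was taken anew from the remaining controls, where Angpt1 stood above Esm1, so some neighbouring pairs changed. In that order 3 of 7 pairs passed. With the longest transcript as the length, Angpt1 also stood above Esm1 in controls.

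**Figure D2:**
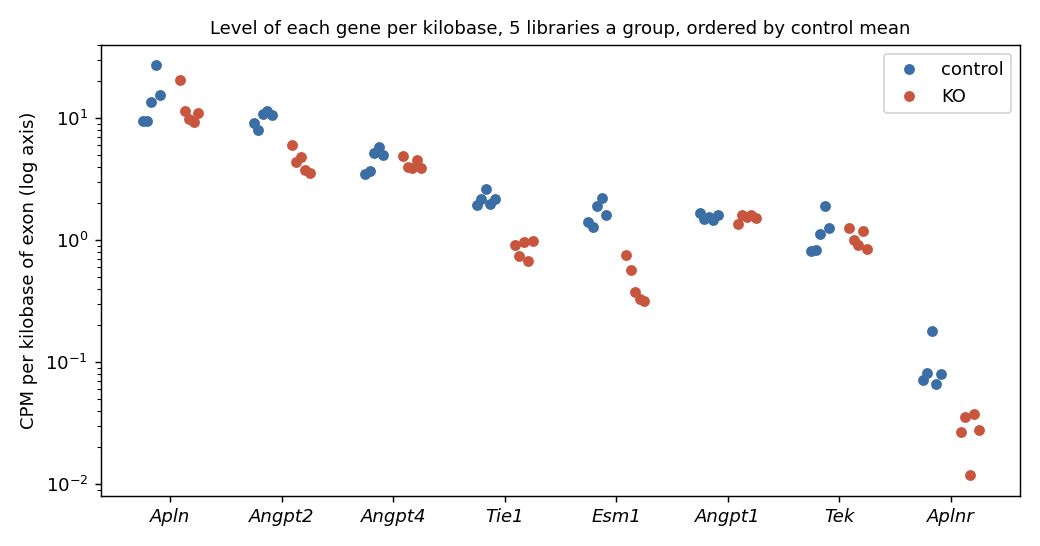
Level per kilobase of exon (y axis, log scale) of the 8 genes in 5 control and 5 KO libraries (1 point each), ordered by control mean. Apln is highest and Aplnr lowest in both groups, while Esm1 and Tie1 lie below Angpt1 in the KO libraries.

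Ratios within a library set ligands beside each other and beside the receptor, here as ratios of counts with no correction for gene length. Angpt2 to Angpt1 was 3.92, 3.79, 5.02, 5.51 and 4.66 in controls and 3.14, 1.91, 2.18, 1.65 and 1.66 in KO libraries. The groups did not overlap, and on the log2 scale the mean was 2.17 ± 0.23 in control and 1.02 ± 0.38 in KO (SD, n = 5 each). Angpt2 to Tek ran from 4.65 to 8.85 in controls and from 2.50 to 4.07 in KO libraries, again without overlap. Tie1 to Tek ran from 1.07 to 2.70 in controls and from 0.595 to 1.22 in KO libraries, where control 4 alone fell within the KO range. Apln to Aplnr ran from 65.2 to 353.8 in controls and from 211.0 to 708.0 in KO libraries, which overlapped, and it rests on 1 to 14 Aplnr counts per library. Since these ratios use the contrast by which the genes were chosen, they were not tested.

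**Figure D3:**
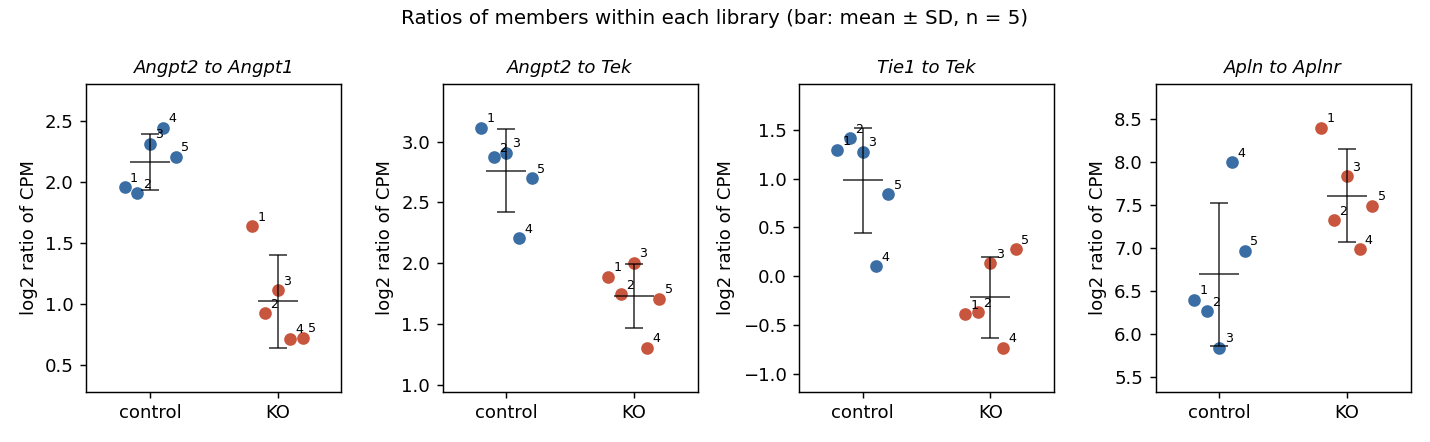
Log2 ratio of CPM (y axis) of 4 gene pairs in each library (points, numbered by replicate), with mean and SD over 5 libraries a group. Angpt2 to Angpt1 and Angpt2 to Tek separate the groups, Tie1 to Tek does so except for control 4, and Apln to Aplnr overlaps.

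Endothelial markers were lower in the same KO libraries. Of 22 such genes, 20 were called lower and 0 higher, with a median log2 fold change of -1.23 and a range of -1.65 to -0.57; 2.17% of all genes tested were called in either direction. Examples are Cdh5 (VE-cadherin; 53.1 ± 5.11 to 22.1 ± 3.67 CPM, log2 fold change -1.27, adjusted P value 5.3e-05) and Robo4, an endothelial roundabout receptor (12.2 ± 1.32 to 3.87 ± 0.846 CPM, -1.65, 5.3e-05). Tal1 and Cd93 did not pass, with adjusted P values of 0.311 and 0.0617. The summed marker level was 224.2 to 266.4 CPM in controls and 96.7 to 137.9 CPM in KO libraries, and no marker was at 0. Fewer endothelial cells and less RNA per endothelial cell cannot be told apart in bulk RNA.

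Set beside these markers, the genes fell at different places. The log2 fold change of Esm1 (-1.84, SE 0.241) lay below that of all 22 markers, of which Robo4 was lowest (-1.65, SE 0.135). That of Tie1 lay below 18 of them, and that of Angpt2 above 14. Aplnr, fitted only without the filter on low counts, had -1.72 (SE 0.475), also below all 22. Those of Tek, Angpt1, Angpt4 and Apln lay above all 22. Relative to the mean of the markers in the same library, the KO minus control difference was -0.03 log2 units for Angpt2, -0.20 for Tie1 and -0.66 for Esm1. It was 0.91 for Apln, 1.00 for Tek, 1.03 for Angpt4 and 1.12 for Angpt1. Aplnr, with 1 to 14 counts per library, had -0.01. Log2 CPM adds a prior count of 2, which at so few counts draws the groups together. This value is therefore not comparable with the fitted -1.72 and does not place Aplnr with the markers. The part of the endothelial signal in the members' values was not tested.

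Among markers of other cell types, only progenitor markers were called. Over all genes tested, 1.86% were called lower and 0.308% higher, so 0 calls in a list this short does not set it apart. Of 12 adipocyte markers 0 were called (median log2 fold change 0.08). Their summed level was 32060.0 to 32961.1 CPM in controls and 33785.9 to 35824.8 CPM in KO libraries, without overlap. Fabp4 was the largest part of this sum, with 20805.4 ± 356.5 CPM in controls and 22552.2 ± 944.6 CPM in KO. It overlapped between groups and was not called (adjusted P value 0.387 by edgeR). The mean log2 CPM of the list overlapped too, at 9.12 to 9.26 in controls and 9.21 to 9.32 in KO. One log2 fold change, 1 of the 12, lay below 0. Of 12 mural cell markers, which mark pericytes and smooth muscle, 9 were tested and 0 called (median -0.35; summed level 186.2 to 245.7 CPM in controls and 149.4 to 202.9 CPM in KO). All 9 lay below 0. Too low to test were Rgs5 (0.700 ± 0.184 CPM in controls and 0.279 ± 0.116 CPM in KO), Higd1b (0.116 ± 0.0376 and 0.0542 ± 0.0478) and Cnn1 (0.221 ± 0.0693 and 0.222 ± 0.114). The mural mean used below leaves them out. The potassium channel genes Kcnj8 and Abcc9 were lower in every KO library than in any control, an arrangement seen in 2.66% of all genes tested. Of 12 macrophage markers 0 were called (median -0.03; 1466.0 to 2257.8 CPM in controls and 1292.3 to 2145.7 CPM in KO). Of 11 progenitor markers 2 were called lower, Pdgfra and Col1a1 (median -0.29; 2878.9 to 3383.7 CPM in controls and 2523.6 to 2948.6 CPM in KO), and 10 of the 11 lay below 0. Col1a1 lay close to the limit (adjusted P value 0.0473 by edgeR) and overlapped between groups. No marker of these lists was at 0 in all libraries. At an unadjusted P value under 0.05, edgeR gave 5 adipocyte, 5 mural, 0 macrophage and 5 progenitor markers, and DESeq2 called 2 adipocyte markers, 0 mural, 0 macrophage and 3 progenitor markers. In these lists and those below, P values are adjusted over all genes tested by edgeR's quasi-likelihood test.

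Genes that act with angiopoietins and TIE receptors gave 1 call among 25 tested of 27, beside 2.17% over all genes tested, and a single call is too few to set the list apart. Ptprb, the vascular endothelial phosphatase that acts on TEK, fell from 6.39 ± 1.58 to 2.75 ± 0.831 CPM, a log2 fold change of -1.22 (SE 0.217, adjusted P value 0.00993). The next smallest P value was that of Nos3, the endothelial nitric oxide synthase, with 5.37 ± 0.787 and 4.40 ± 0.678 CPM (-0.29, 0.409). Broadly expressed signalling partners of high level were not called: the integrin Itgb1 had a log2 fold change of -0.08, the kinase Akt2 0.07 and the GTPase Rac1 0.03. The median of the list was 0.00, and 12 of the 25 lay below 0. Grb7 and Lect2 were too low to test.

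Genes of the apelin pathway gave 0 calls in either direction among 17 tested of 20. Over all genes tested 2.17% were called, so 0 calls here or in the angiopoietin-like list below does not set either list apart. Prcp, a carboxypeptidase, had the smallest P value, with 10.2 ± 1.07 and 8.35 ± 0.925 CPM (log2 fold change -0.29, adjusted P value 0.212). The angiotensin receptor gene Agtr1a followed at -0.25 (0.439) and the inhibitory G protein gene Gnai2 at -0.13 (0.450). The median was -0.02. Apela, the second ligand of APLNR, had 0 counts in every library, and Klkb1 was too low to test. Among 6 angiopoietin-like genes, 4 were tested and 0 called, with Angptl4, a lipoprotein lipase inhibitor, at 883.8 ± 26.5 and 890.6 ± 21.2 CPM (log2 fold change 0.01). At an unadjusted P value under 0.05, edgeR gave 1 apelin pathway gene and 0 angiopoietin-like genes, and DESeq2 called 0 of either list.

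Other genes known from tip cells gave 10 lower calls and 0 higher among 28 tested of 29 (1.86% and 0.308% over all genes), with a median log2 fold change of -0.23. This list, like the others, was chosen with earlier results of these data known. Ednrb, an endothelin receptor, fell from 16.9 ± 0.940 to 8.24 ± 1.12 CPM (-1.04, adjusted P value 6.1e-05), and Trp53i11 from 42.3 ± 4.98 to 17.2 ± 4.82 CPM (-1.30, 0.000581). Kdr, the main VEGF receptor, fell from 7.89 ± 0.687 to 4.40 ± 0.568 CPM (-0.85, 0.000733). Flt4, the receptor of VEGF-C (-1.07, 0.000782), the Notch ligand Dll4 (-1.49, 0.00187) and the actin bundler Fscn1 (-0.56, 0.00296) were also lower. Kcne3, Cd34, Ramp3 and Pdgfb completed the 10. Pdgfb, a platelet-derived growth factor gene, overlapped between groups, and its call was lost in 6 of 10 fits that left out a library (control 3, control 5, KO 2, KO 3, KO 4 or KO 5). The most abundant genes of the list, the basement membrane genes Col4a1, Col4a2 and Nid1, were not called, with log2 fold changes of -0.14, -0.18 and -0.09, although Col4a1 and Col4a2 did not overlap between groups. Col4a2 lay close to the limit (adjusted P value 0.0527) and was called lower with DESeq2, limma voom, upper quartile factors, library totals or the stricter filter, and without KO 5. Several tip genes are also expressed by other cells of fat, and Prnd had 0 counts.

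Genes known from stalk and phalanx cells gave 3 lower calls and 0 higher among 17 tested (again beside 1.86% and 0.308% over all genes), with a median of -0.31, and all 17 log2 fold changes lay below 0. Nrarp, a Notch target, fell from 2.30 ± 0.183 to 0.890 ± 0.266 CPM (-1.36, adjusted P value 0.00134). The TGF-beta co-receptor Eng fell from 23.3 ± 2.47 to 16.4 ± 0.640 CPM (-0.51, 0.00211) and Notch4 from 20.9 ± 3.48 to 13.3 ± 2.73 CPM (-0.65, 0.0288). The Notch targets Heyl (-0.75, 0.105) and Hes1 (-0.38, 0.135) and the adhesion molecule Selp (-0.94, 0.126) did not pass. The call of Notch4 was lost with control 5, KO 2, KO 3, KO 4 or KO 5 left out in turn, and without control 4 and KO 1 the list had 5 calls. Whether tip and stalk lists differ was not tested.

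The 12 hypoxia targets gave 0 calls with edgeR or DESeq2 (1 at an unadjusted P value under 0.05 in edgeR), with a median log2 fold change of 0.21 and all 12 values above 0. Over all genes tested edgeR called 2.17%, so 0 calls among 12 genes does not set the list apart. The smallest P value was that of Ero1a, an oxidase of protein folding, at 783.8 ± 133.1 and 916.2 ± 51.7 CPM (0.23, adjusted P value 0.345). Ldha, Bnip3 and Pgk1, the most abundant, had log2 fold changes of 0.14, 0.26 and 0.15. Without control 4, 2 of the 12 were called higher (Bnip3 and Ero1a), and without control 4 and KO 1, 4 were (Bnip3, Egln3, Ero1a and Ndrg1). The zero count thus rested on the libraries that stood apart.

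**Figure D4:**
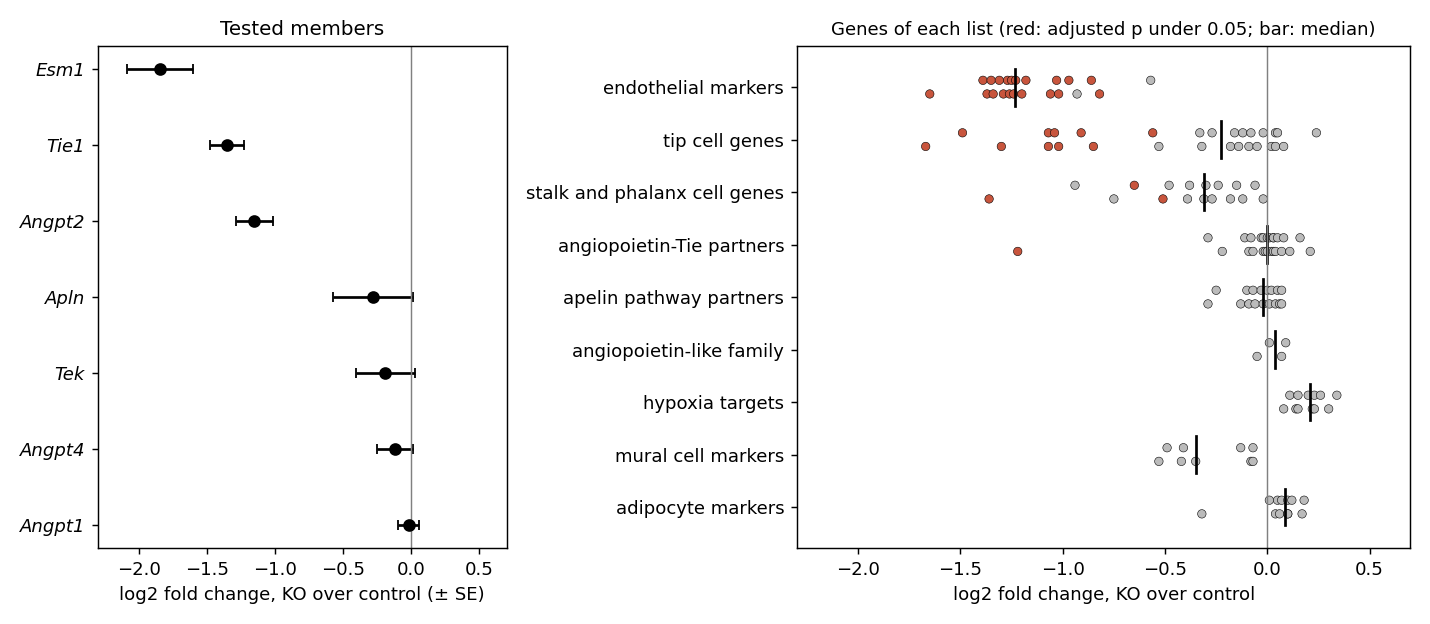
Left, log2 fold change of KO over control with SE for the 7 fitted genes. Right, log2 fold changes of the genes of 9 lists (points; red, adjusted P value under 0.05; bars, medians), where endothelial markers centre on -1.23 and the lists of angiopoietin-Tie and apelin partners near 0.

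Differences between libraries of the same group were examined next, since the genotype contrast does not set them. Each gene's log2 CPM was taken as its deviation from the mean of its group and correlated with that of 6 list means over 10 libraries. Of 42 such relations, 3 passed adjustment on Pearson's r in an exact permutation test within groups. The points share library composition and scaling, and control 4 and KO 1 weigh heavily in them.

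Apln followed the hypoxia targets most closely, with r = 0.955 (exact permutation P = 0.000139, adjusted 0.00583) and Spearman's rho = 0.903 (P = 0.00132, adjusted 0.0321). Control 4 and KO 1 were also the 2 libraries farthest from the median of the hypoxia mean, and without them r was 0.79 over 8 libraries. Esm1 had r = 0.792 with the same targets (exact permutation P = 0.00271, adjusted 0.0389), rho = 0.77 (P = 0.0133, adjusted 0.111) and r = 0.673 without those libraries. Angpt2 had r = 0.698 (exact permutation P = 0.0197, adjusted 0.100), rho = 0.709 (P = 0.0378, adjusted 0.116) and r = 0.455 without them. Tie1 had r = -0.0428 (exact permutation P = 0.893, adjusted 0.915) and rho = 0.127 (P = 0.739, adjusted 0.817).

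The other genes did not pass with the hypoxia targets either, and their values rested largely on control 4 and KO 1. Tek had r = 0.806, above that of Esm1 (exact permutation P = 0.0115, adjusted 0.0807), rho = 0.636 (P = 0.0771, adjusted 0.17) and r = 0.297 without those libraries. Angpt4 had r = 0.674 (exact permutation P = 0.0215, adjusted 0.100), rho = 0.733 (P = 0.0356, adjusted 0.116) and r = 0.261 without them. Angpt1 had r = -0.669 (exact permutation P = 0.0451, adjusted 0.135) and rho = -0.358 (P = 0.344, adjusted 0.467), and its r turned to 0.333 without them.

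Of the receptors, Tek passed with 1 list and Tie1 with none. Tek varied with mural cell markers, with r = 0.841 (exact permutation P = 0.00278, adjusted 0.0389) and rho = 0.879 (P = 0.0016, adjusted 0.0321). Without control 4 and KO 3, the libraries farthest on that axis, r was 0.931, and without control 4 and KO 1 it was 0.659. With progenitor and adipocyte markers Tek had r = 0.559 and 0.523, which did not pass. Without control 4 and KO 1 these were 0.634 and 0.599, near its value with mural markers. With endothelial markers Tek had r = 0.267 (exact permutation P = 0.433, adjusted 0.529) and rho = 0.394 (P = 0.27, adjusted 0.378). This r ranged from 0.127 without KO 1 to 0.444 without KO 4. Tie1 had r = 0.758 with endothelial markers (exact permutation P = 0.0351, adjusted 0.114) and rho = 0.733 (P = 0.0374, adjusted 0.116), which did not pass, and r = 0.824 without control 4 and KO 1. With mural markers it had r = -0.354 (exact permutation P = 0.35, adjusted 0.459) and rho = -0.345 (P = 0.372, adjusted 0.473). The difference between the correlations of Tek and Tie1 was not tested.

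Angpt2 had r = 0.818 with endothelial markers (exact permutation P = 0.00958, adjusted 0.0805) and rho = 0.83 (P = 0.0091, adjusted 0.0955), also not past the limit. Angpt4 had r = 0.775 with mural markers (exact permutation P = 0.00764, adjusted 0.0802), while its rho of 0.842 passed (P = 0.00229, adjusted 0.0321). Without control 4 and KO 1, r was 0.774 for Angpt2 with endothelial markers and 0.595 for Angpt4 with mural markers. Angpt4 also had r = 0.748 with adipocyte and 0.729 with progenitor markers (exact permutation test, adjusted P = 0.114 each). Without control 4 and KO 1 these were 0.785 and 0.74, above its value with mural markers. Whether Angpt4 or Tek varied more with mural markers than with those lists was not tested. Between members, as a description over all 10 libraries with control 4 and KO 1 included, Tek and Angpt4 had r = 0.92 and Esm1 and Angpt2 0.874. Tek and Apln had 0.863, and Tek and Tie1 -0.209. Angpt1 was negative with each of the other 6, from -0.667 with Apln to -0.401 with Tek.

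**Figure D5:**
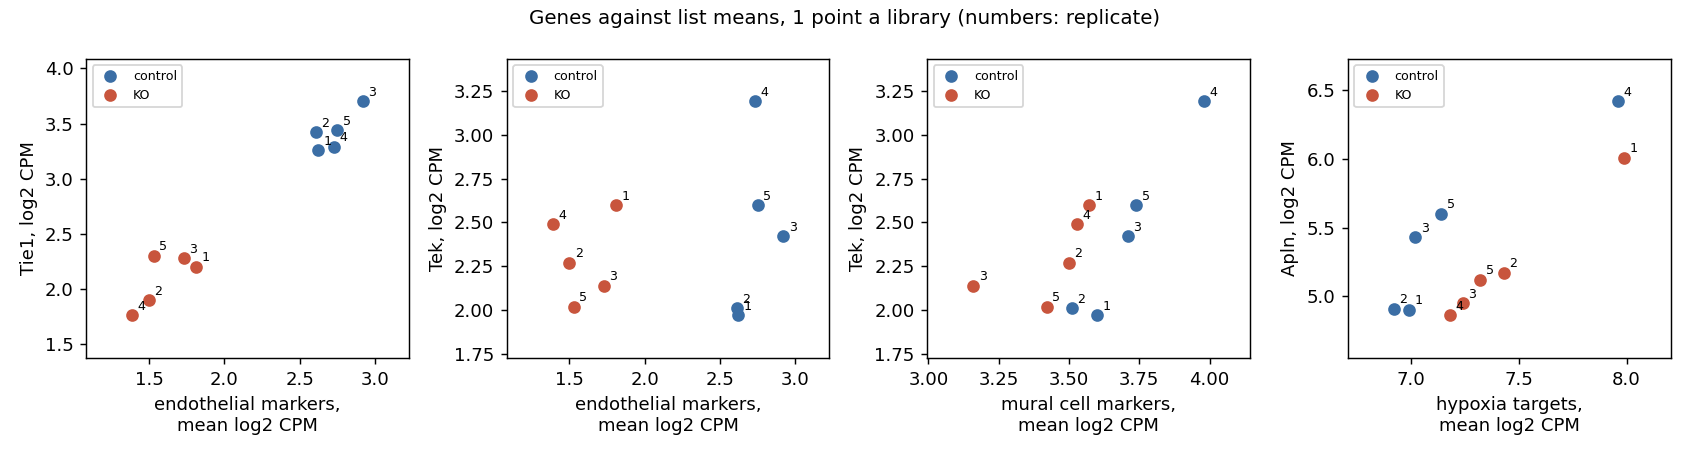
Log2 CPM of Tie1, Tek and Apln (y axes) against the mean log2 CPM of marker or target lists (x axes), 1 point a library, numbered by replicate. Tie1 and the endothelial mean separate the groups together, Tek overlaps between groups along that axis, and Apln is highest in control 4 and KO 1, the libraries with the highest hypoxia mean.

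Genes with the most similar pattern between libraries of a group were sought over all genes averaging at least 1 log2 CPM, as a description over 10 libraries. For Apln they were Plod1 (r = 0.993), Gnb4 (0.991) and P4ha2 (0.99), of which Plod1 and P4ha2 encode collagen hydroxylases. For Tek they were Pamr1 (0.976), Acot13 (0.968) and Grb14 (0.967), and for Angpt4 H2-DMb1 (0.992), Grb14 (0.972) and Efemp2 (0.963). Grb14, an adaptor protein gene of the angiopoietin-Tie list, was among the 3 nearest to both Tek and its ligand Angpt4. Tek and Angpt4 had r = 0.92 with each other, so a shared nearest gene is no separate result. A link of Grb14 to either gene was not tested. The nearest genes for Tie1 were Cfap410 (0.976), Zfp647 (0.944) and Gatd3a (0.943), and none of these was called. For Angpt2 they were Hebp1 (0.965), B3gntl1 (0.957) and Pacc1 (0.956), for Esm1 Zkscan6 (0.948), Parvb (0.944) and Plk2 (0.941), and for Angpt1 Hmgcs1 (0.944), Acad9 (0.93) and Cggbp1 (0.92). Of these nearest genes, Acot13 alone passed between genotypes, and it was higher in KO (log2 fold change 0.21, adjusted P value 0.0235).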

How the data were processed

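The authors prepared libraries with a SMARTer mRNA kit, aligned reads to mouse GRCm38.p6 by STAR, summed fragments over genes by featureCounts and deposited the raw counts. The strand setting is not given in the sources used here, and this kit does not mark strand, so antisense partners cannot be told apart. Gene positions and exon lengths are those of GENCODE M21.

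Genes too low to fit were removed by filterByExpr with a minimum count of 10, and TMM factors were computed. The quasi-likelihood test of edgeR 4.0.16 (R 4.3.3) was run unpaired on 14270 genes with Benjamini-Hochberg adjustment and a limit of 0.05. Log2 CPM used a prior count of 2. Depth was 18949106 to 26237825 counts per library; counting error is largest for Esm1 and Aplnr. Any pair of libraries within a group differed beyond sampling noise (chi-square over its degrees of freedom 3.54 or more). The labels do not say whether replicates came from separate animals, so P values measure the spread between these cultures. Scripts were tested on simulated data. The result of 1 gene of the apelin pathway list is not reported here; the counts of that list include it.

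Members and gene lists were chosen with earlier results of these data known. The genes named are the members, those overlapping them, Fam20c, up to 6 genes of each list with the smallest P value and up to 3 of the highest level not called, and the 3 nearest genes of each member. The list members beyond these (Kcne3, Cd34, Ramp3, Pdgfb, Ndrg1, the untested genes) were named after their values were seen. The permutation P values of the correlations were added after the data were seen; the plan had values only. Alternatives were DESeq2 1.42.0, limma 3.58.1 voom, other size factors and filters, a replicate block and each library left out; leaving out control 4 and KO 1 together was added after the data were seen.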

Additional observations from a re-analysis of the deposited data

Results flagged for a closer look

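Among 36 groups of 5 values examined, 2 had an extreme library whose gap to the nearest value, divided by the range of the group, was above 0.71, and chance alone gives about 1.8. Apln in KO 1 was 64.5 CPM against 29.0 to 35.8 CPM in the other KO libraries, a gap of 0.808 of the range. KO 1 also had the highest mean of the hypoxia targets in its group, 7.99 log2 CPM, and the part of this in the Apln value was not tested. Aplnr in control 3 was 0.658 CPM against 0.242 to 0.300 CPM in the other controls, a gap of 0.86 of the range, and rests on 14 counts.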

How the results depend on the processing

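Esm1, Angpt2 and Tie1 were called lower under all 19 alternatives fitted, and Angpt1, Angpt4, Tek and Apln under none. Over those alternatives the log2 fold change of Apln ranged from -0.53 to 0.04 and that of Tek from -0.30 to 0.05. The 44 genes called higher became 125 with DESeq2 and 21 with a replicate block, 19 to 119 with each library left out, and 145 without control 4 and KO 1; leaving out control 4 gave the 119, and the cause was not tested. The 265 genes called lower became 164 to 323 with each library left out, the lowest without KO 2 and 171 without KO 5, and 353 without control 4 and KO 1. Same-numbered libraries did not deviate together (correlations of -0.173, 0.0892, 0.263, -0.251 and 0.0337). For 1 of 5 controls the nearest KO library was that of the same number, so the numbers were not taken as pairs. The replicate block left 3 members called, and the calls of Pdgfb and Notch4 were lost with it. Without control 4 and KO 1, stalk and phalanx genes called became 5 and hypoxia targets 4, and hypoxia targets ranged from 0 to 2 with each library left out. Neighbouring levels that differed ranged from 3 to 7 of 7, with the order taken anew each time. Within-group r ranged from 0.989 to 0.998 for Angpt4 with H2-DMb1 and from 0.645 to 0.90 for Tie1 with the endothelial mean. No called result reversed. Depth limits Aplnr, at 1 to 14 counts, and Esm1, at 13 to 96.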
